A study of Rattus norvegicus with 10 samples.

Results

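The integrated stress response and serine synthesis were followed in the rat left ventricle after GATA-4 gene transfer through 10 genes: Atf4, Atf5, Ddit3, Trib3, Asns, Chac1, Sesn2, Psat1, Phgdh and Shmt2. They were taken by name, as every probe set of the array whose annotation lists one of these genes alone, which gave 13 probe sets of 31042 and 10 genes of the 14217 that the array names in this way. The samples were left ventricles of male Sprague-Dawley rats, each read on 1 Affymetrix rat expression array. A group of 5 had received the gene for GATA-4, a transcription factor that binds GATA motifs in cardiac genes, and a group of 5 had received LacZ, the bacterial beta-galactosidase gene, as the control, all 10 sampled on day 3. The way the genes were delivered and the cells that took them up were not stated in the sources used here, and the groups were read from the source label because the sample titles name GATA-4 on every array. The LacZ hearts were thus also hearts that had undergone gene transfer, and no untreated heart was part of the comparison.

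The integrated stress response starts when one of several kinases phosphorylates the initiation factor eIF2, which slows general protein synthesis but lets a few messages with upstream reading frames, that of Atf4 among them, be translated more. ATF4 is a transcription factor that, often with C/EBP partners, raises genes for amino acid uptake, asparagine and serine synthesis and tRNA charging, as well as the factor CHOP, encoded by Ddit3. Because ATF4 and ATF5 are controlled at translation, their message level is not a measure of their protein. In heart muscle the response is known from mitochondrial and endoplasmic reticulum stress.

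The asparagine synthetase gene Asns rose 1.87-fold with GATA-4, and it was the 1 gene of the 10 that passed the test. The other metabolic genes, Psat1, Phgdh and Shmt2, and the stress effectors Chac1 and Sesn2 had positive differences of 0.44 to 0.93 on the log2 scale that did not pass. The transcription factor genes Atf4, Atf5 and Ddit3 and the pseudokinase gene Trib3 had differences between -0.15 and 0.16, none of which passed. The test was limma with an intensity trend on quantile-normalized log2 signals, with p-values adjusted by the Benjamini-Hochberg method over 18625 tested probe sets and a threshold of 0.05, and rose, fell and changed are used only of genes past it. Each gene is counted by its probe set of highest mean signal. None of the 10 fell. Of the 10688 genes tested 6.37% changed, 3.71% upward and 2.66% downward, and 5.3% of the probe sets did, so 1 gene in 10 is not set apart from this background. At an unadjusted p under 0.05, 6 of the 10 were higher, Asns, Chac1, Sesn2, Psat1, Phgdh and Shmt2, and none was lower, where of all 10688 genes 1279 were higher and 1306 lower at that level. Positive differences were found in 7 of the 10, where 5068 of 10688 genes had one, and the median difference was 0.51, beside -0.02 over all genes tested. The 10 genes were chosen with earlier results of these data known, and several were high or low on the same arrays. These counts and the median therefore describe the genes and are not a test of them as a set.

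The arrays themselves differed in ways that bear on these values. GATA-4 array 1 was dim, with a trimmed mean signal of 143 against 250.2 to 329.9 on the other 9. The 3' to middle log2 signal ratio of the control probe sets for GAPDH and beta-actin, a sign of RNA integrity, was 0.88 ± 0.10 on GATA-4 arrays and 1.07 ± 0.14 on LacZ arrays (SD, n = 5 each), an exact two-sided permutation p of 0.0476 that was 0.524 by GAPDH alone and 0.0159 by beta-actin alone, while the 3' to 5' ratio gave an exact p of 0.984. Gata4 itself, as a check of the labels, rose by 0.79 (limma adjusted p = 0.00131), with every GATA-4 array above every LacZ array. Markers of macrophages rose in 7 of 12 genes and those of dividing cells in 3 of 8, with none falling in either list. The summed macrophage signal was 12549 to 14444 with GATA-4 and 7434 to 9497 with LacZ, and that of dividing cells was 1178 to 2101 with GATA-4 and 1049 to 1204 with LacZ. GATA-4 array 1 had the lowest sum of the GATA-4 arrays for both lists. Neutrophil markers rose in 3 of 5 tested genes of 7 on the array, with sums of 2643 to 8433 with GATA-4 and 1708 to 3201 with LacZ. The 9 heart muscle markers measured summed to 91594 to 94576 with GATA-4 and 94260 to 97547 with LacZ, and of them Ttn alone changed, downward by 0.27. No marker of fibroblasts, endothelium, smooth muscle or T and NK cells changed. Positive differences that did not pass were found in 6 of 6 tested T and NK cell markers, with a median of 0.47. The same held for 4 of 4 of smooth muscle, 5 of 8 of fibroblasts and 1 of 6 of endothelium. Of 2 mesothelial markers tested Krt18 rose, from a LacZ mean of 3.54 that alone was too dim to be tested. The other, Wt1, differed by -0.51 (limma adjusted p = 0.108). The part of these differences in the results below was not tested, and in pieces of ventricle more cells of a type cannot be told apart from more RNA per cell.

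**Figure D1:**
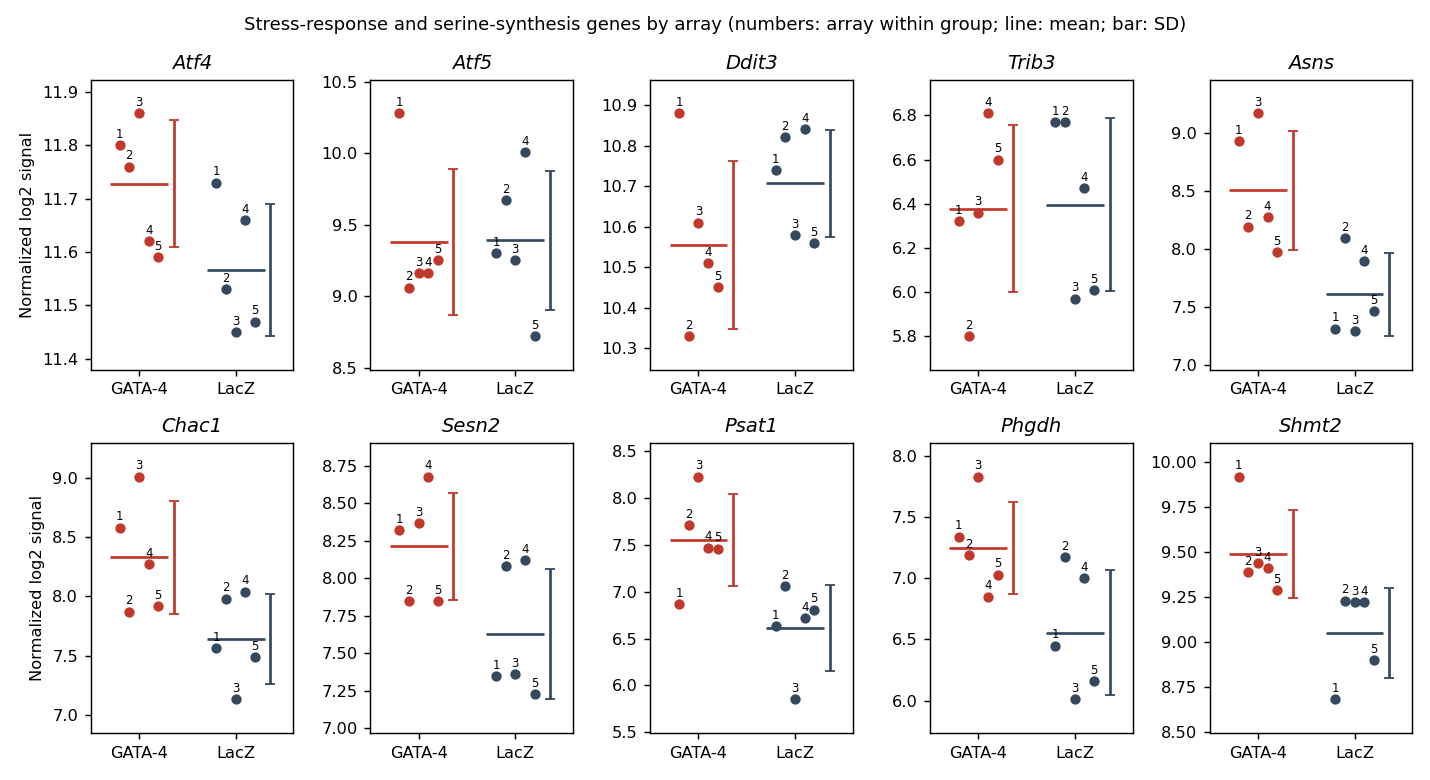
Normalized log2 signal of the 10 genes on every array, each panel with its own axis. Points are arrays, numbered within the group, with GATA-4 on the left and LacZ on the right, horizontal lines are group means and bars are the SD over 5 arrays. The groups are fully separate only for Shmt2, and Asns has 1 LacZ array above the lowest GATA-4 array.

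Atf4, the central transcription factor of the response, read 11.80, 11.76, 11.86, 11.62 and 11.59 on GATA-4 arrays 1 to 5, against 11.73, 11.53, 11.45, 11.66 and 11.47 on LacZ arrays 1 to 5. LacZ arrays 1 and 4 lay among the GATA-4 arrays. The difference was 0.16 with a 95% interval of -0.01 to 0.33 (limma adjusted p = 0.24), so that larger rises lie outside the interval.

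Atf5, a related factor that is also under translational control, read 10.28, 9.06, 9.16, 9.16 and 9.25 with GATA-4 and 9.30, 9.67, 9.25, 10.01 and 8.72 with LacZ. The single high value is that of the dim array, and the other GATA-4 arrays lay within the LacZ range. The difference of -0.01 has a wide interval, -0.57 to 0.55 (limma adjusted p = 0.985). Ddit3, which encodes CHOP, a factor tied to cell death under lasting stress, read 10.88, 10.33, 10.61, 10.51 and 10.45 with GATA-4 and 10.74, 10.82, 10.58, 10.84 and 10.56 with LacZ. GATA-4 arrays 2, 4 and 5 were below every LacZ array while the dim GATA-4 array 1 was above them all, and the difference was -0.15 (95% interval -0.38 to 0.07, limma adjusted p = 0.422). With median centring and without the dim array, Ddit3 fell by 0.31 (limma adjusted p = 0.0361), which was its lowest p among the alternatives.

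Trib3, a pseudokinase gene induced by ATF4 and CHOP that feeds back on them, has 3 probe sets. The one with the highest mean read 6.32, 5.80, 6.36, 6.81 and 6.60 with GATA-4 and 6.77, 6.77, 5.97, 6.47 and 6.01 with LacZ, and the groups overlapped over most of their range. Its difference was -0.02 (95% interval -0.49 to 0.46), and those of the other probe sets were 0.08 and -0.04, with limma adjusted p-values from 0.859 to 0.973. The sign of each turned when single arrays were left out.

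Chac1, whose product breaks down glutathione and which is a target of ATF4, read 8.58, 7.87, 9.01, 8.27 and 7.92 with GATA-4 and 7.56, 7.98, 7.13, 8.04 and 7.49 with LacZ. GATA-4 arrays 1, 3 and 4 were above all LacZ arrays, and arrays 2 and 5 were not. The difference was 0.69 (SE 0.23), or 1.61-fold, with a limma adjusted p of 0.10. Sesn2, a leucine-binding sestrin that restrains the growth kinase mTORC1, read 8.32, 7.85, 8.37, 8.68 and 7.85 with GATA-4, against 7.35, 8.08, 7.36, 8.12 and 7.23 with LacZ. The same GATA-4 arrays, 1, 3 and 4, lay above all LacZ arrays. The difference of 0.58 (SE 0.22), or 1.50-fold, had a limma adjusted p of 0.135, and the other Sesn2 probe set was too dim to be tested, at 4.06 ± 1.25 on GATA-4 arrays and 3.27 ± 1.36 on LacZ arrays (SD, n = 5 each).

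**Figure D2:**
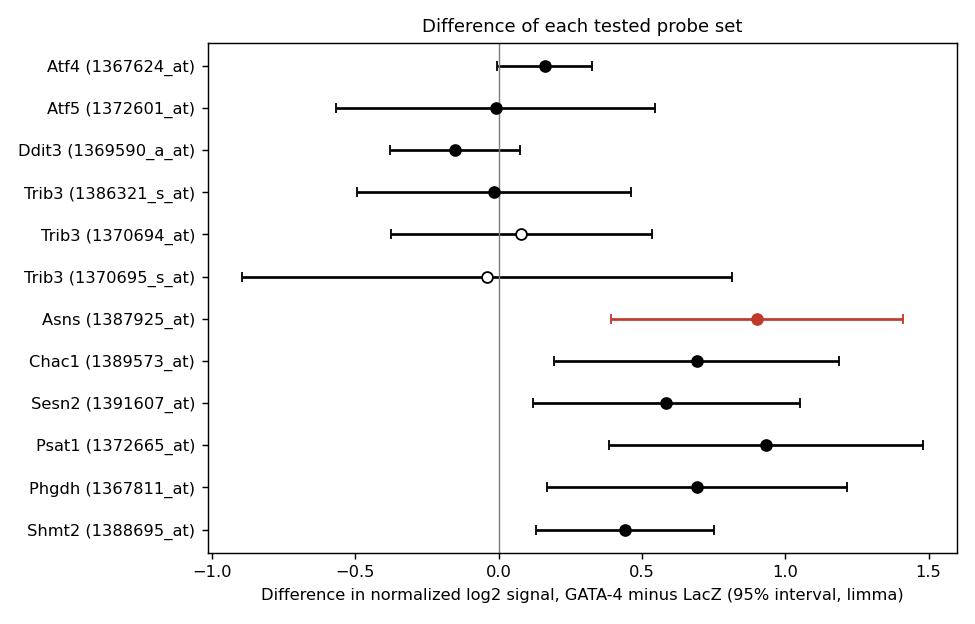
Difference in normalized log2 signal, GATA-4 minus LacZ, for the 12 tested probe sets, with limma's 95% interval. Filled points stand for the gene and open points are further probe sets. Asns, in red, passed the adjusted threshold, and the intervals of Chac1, Sesn2, Psat1, Phgdh and Shmt2 also lie above 0 without an adjusted p under 0.05.

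Asns makes asparagine from aspartate and glutamine and is a standard readout of ATF4. Its deposited signals were 259.7, 372, 741, 308 and 271 on GATA-4 arrays 1 to 5, against 149, 331, 150.2, 237 and 162 on LacZ arrays 1 to 5. After normalization it read 8.93, 8.19, 9.17, 8.27 and 7.97 with GATA-4 and 7.31, 8.09, 7.29, 7.89 and 7.46 with LacZ. GATA-4 array 5 alone fell below a LacZ array, number 2. The rise was 0.90 (SE 0.24, 95% interval 0.39 to 1.41), with a limma adjusted p of 0.0455. The call is close to the threshold: leaving out any of GATA-4 arrays 3 and 4 and LacZ arrays 1, 3, 4 and 5 ended it, 6 of the 10 leave-one-out fits. Over those 10 fits the limma adjusted p ran from 0.036 to 0.128 and the difference from 0.73 to 1.03.

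On every array Asns can also be set against Ddit3, a description chosen after the values were seen and not tested. The log2 signal of Asns less that of Ddit3 was -1.95, -2.14, -1.44, -2.24 and -2.47 on the GATA-4 arrays, against -3.42, -2.74, -3.29, -2.95 and -3.10 on the LacZ arrays, and the groups did not overlap. They also did not overlap under any of 16 alternatives, the signals as deposited included, with a difference between the groups of 0.90 to 1.26. Most of these left out arrays, which can hardly make separate groups overlap, and centring a whole array does not alter a within-array difference. The alternatives are thus little of a check, and how often other pairs of genes separate was not counted. Against Atf4 the groups did overlap, with a difference of 0.74.

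Serine synthesis branches from glycolysis at 3-phosphoglycerate, which Phgdh oxidizes and Psat1 then transaminates, and in mitochondria Shmt2 splits serine into glycine and a one-carbon unit. Psat1 read 6.87, 7.71, 8.23, 7.47 and 7.46 on the GATA-4 arrays, against 6.63, 7.06, 5.85, 6.72 and 6.81 on the LacZ arrays. GATA-4 arrays 2 to 5 were above all LacZ arrays, and the dim array was below LacZ array 2. The difference was the widest of the 10 genes at 0.93 (SE 0.25), or 1.91-fold, and just missed the threshold (limma adjusted p = 0.051), while without the dim array Psat1 rose by 1.11 (limma adjusted p = 0.00784).

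Phgdh read 7.34, 7.19, 7.83, 6.85 and 7.03 with GATA-4 and 6.45, 7.17, 6.01, 7.00 and 6.16 with LacZ. LacZ arrays 2 and 4 were within the GATA-4 range and the other LacZ arrays well below it, and the difference of 0.69 (SE 0.24), or 1.62-fold, had a limma adjusted p of 0.115. Shmt2 read 9.92, 9.39, 9.44, 9.41 and 9.29 with GATA-4 and 8.68, 9.23, 9.22, 9.22 and 8.90 with LacZ. It is the 1 gene of the 10 in which every GATA-4 array lay above every LacZ array, where groups did not overlap for 9.66% of all genes tested, 4.56% with GATA-4 higher. The difference was 0.44 (SE 0.14), or 1.36-fold, with a limma adjusted p of 0.0955.

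Several of the genes were high or low on the same arrays. GATA-4 array 3 held the highest of all 10 arrays' values for 5 genes, Atf4, Asns, Chac1, Psat1 and Phgdh, and LacZ array 3 the lowest for 5. Within the LacZ group, arrays 2 and 4 were the highest pair for 6 genes: Atf5, Ddit3, Asns, Chac1, Sesn2 and Phgdh. Those LacZ arrays also had the lowest 3' to middle ratios of their group, 0.92 and 0.93 against 1.09 to 1.25, and the highest trimmed mean signals, 315 and 264 against 250.2 to 254. In the GATA-4 group array 3, with the highest ratio of that group at 1.00, held the top values of 5 genes. Array 1, with the lowest ratio at 0.79, held those of 3 genes. Array 2, with a ratio of 0.98, held the top value of 0 genes and, of all 10 arrays, the lowest value of 2. Within the GATA-4 group it was the lowest for Atf5, Ddit3, Trib3, Chac1 and Sesn2. Whether RNA integrity had a part in the spread was not tested. The mean deviation over the 10 genes was 0.40, -0.01, 0.48, 0.18 and 0.01 on GATA-4 arrays 1 to 5, against -0.28, 0.11, -0.52, 0.07 and -0.45 on LacZ arrays 1 to 5. Over Psat1, Phgdh and Shmt2 alone it was 0.29, 0.34, 0.75, 0.16 and 0.18 against -0.50, 0.07, -0.73, -0.11 and -0.46. The groups were apart there by a narrow margin, 0.16 on GATA-4 array 4 and 0.07 on LacZ array 2. Singly, Psat1 and Phgdh overlapped, and how often such means of other genes separate was not counted. Over the other 7 genes, which join Asns, Chac1 and Sesn2 with Atf4, Atf5, Ddit3 and Trib3, the groups overlapped.

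**Figure D3:**
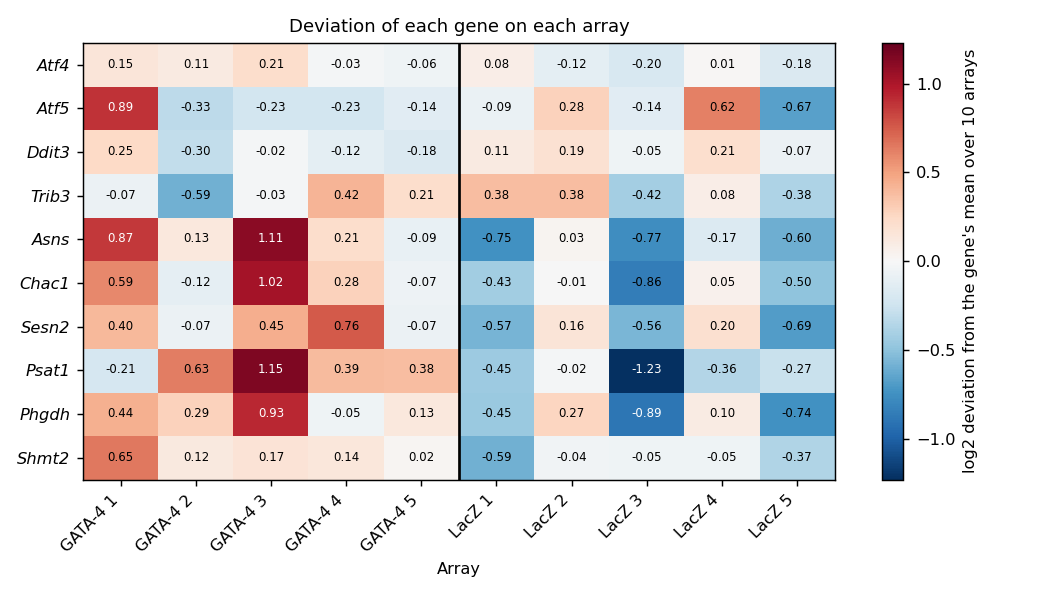
Log2 deviation of each gene on each array from its mean over the 10 arrays, GATA-4 arrays on the left and LacZ arrays on the right of the black line. Red is above and blue below the mean. Asns, Chac1, Sesn2, Psat1, Phgdh and Shmt2 are mostly red with GATA-4 and blue with LacZ, with LacZ arrays 2 and 4 near the mean, while Atf5, Ddit3 and Trib3 show no such division.

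ATF4 with a C/EBP partner binds a composite element with the core TGATGNAA, which was searched for on both strands in the RefSeq promoter windows of the 10 genes (assembly GRCr8, 250 bases before to 50 after the start). Chac1 and Trib3 held 1 match each, 2 of 10 genes, where 3.98% of all 33469 windows did, and this window of Asns, the gene that rose, held none. The stretches around both matches are shown because one lies before a gene with a difference of 0.69 and the other before a gene with a difference of -0.02. They are given 5' to 3' on the strand of the gene, with the match in capitals, which here is the core read on the other strand. The Chac1 stretch is chr3:126795938-126795997 on the plus strand, with its match 167 to 160 bases before the start, and the Trib3 stretch is chr3:161275534-161275593 on the minus strand, with its match 21 to 14 bases before the start.
Chac1: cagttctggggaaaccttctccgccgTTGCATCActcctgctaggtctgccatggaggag
Trib3: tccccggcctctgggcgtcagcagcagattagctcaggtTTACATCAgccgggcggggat
A match is a run of letters, not a shown binding site, and no factor binding was measured here. The printing of both stretches was decided after the values were seen.

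The wider pathway was read from 8 lists with 166 genes, of which 154 were on the array and 143 were tested. The lists too were chosen with earlier results of these data known, so their counts are a description. Among these 7 rose and 3 fell, beside the 6.37% of all genes that changed, and the median difference was 0.09. At an unadjusted p under 0.05, 34 of the 143 were higher and 16 lower, beside 1279 and 1306 of all 10688 genes. Higher and lower genes numbered 9 and 3 of 25 other ATF4 and CHOP targets and 6 and 0 of 13 amino acid transporters. They numbered 7 and 0 of 19 synthetases and 9 and 1 of 18 genes of the IRE1, XBP1 and ATF6 arm. Without the dim GATA-4 array 1 more genes of every list changed, between 2 of the synthetases and 10 each of the ATF4 and CHOP targets and of the IRE1, XBP1 and ATF6 arm, where all 10 arrays gave 2 each for the last pair of lists. Calls grew over the whole array as well, to 15.3% of all probe sets tested from 5.3%. In the signals as deposited no gene of the lists changed, beside 0.0483% of all probe sets. The machinery upstream of ATF4 had no changed member among 18 genes tested on all 10 arrays, with a median of 0.06, and 3 changed without GATA-4 array 1. The eIF2 kinase genes Eif2ak1 to Eif2ak4 had differences from -0.05 to 0.18. Eif2s1, the phosphorylated subunit of eIF2, differed by 0.19 (limma adjusted p = 0.23), and Dele1, a mitochondrial protein that relays stress to one of the kinases, by -0.35 (adjusted p = 0.189). At an unadjusted p under 0.05 Dele1 alone of the 18 was lower, with a p of 0.0351, and none was higher.

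Of the other ATF4 and CHOP targets, 29 on the array and 25 tested, 2 rose, none fell, and the median difference was 0.15. Gdf15, a secreted stress hormone of the TGF-beta family, read 6.62, 6.09, 6.59, 6.17 and 5.45 with GATA-4 and 3.86, 5.03, 4.62, 5.20 and 4.94 with LacZ. Every GATA-4 array lay above every LacZ array, and Gdf15 rose by 1.45 (SE 0.29), or 2.74-fold, with a limma adjusted p of 0.0185. Its LacZ mean of 4.73 alone was too dim to be tested, and with 16 added to every signal the rise was 1.05. Leaving out GATA-4 array 3 or LacZ array 3 ended the call (limma adjusted p of 0.0516 and 0.0604). Aldh18a1, which makes the proline precursor pyrroline-5-carboxylate, read 8.92, 8.83, 9.05, 8.82 and 8.77 with GATA-4 against 8.43, 8.44, 8.17, 8.34 and 8.08 with LacZ. It rose 1.50-fold (difference 0.59, limma adjusted p = 0.0123) and stayed past the threshold in all 10 leave-one-out fits. Aldh1l2, a mitochondrial enzyme of one-carbon metabolism, differed by 0.62 (adjusted p = 0.056). Vldlr, a lipoprotein receptor, differed by -0.26 (adjusted p = 0.0598) by its brightest probe set, and of its 3 others 1 fell, by 0.35 (limma adjusted p = 0.0428). Atf3, Cebpb and Cebpg, partners of ATF4 picked once their values were known, had differences of 0.51, 0.69 and -0.08. Their limma adjusted p-values were 0.258, 0.0977 and 0.632.

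Amino acid transporters had 16 genes on the array and 13 tested, of which 2 rose and none fell, and the median difference was 0.23. Slc7a5, the leucine transporter of the cell surface, read 7.16, 6.44, 6.65, 6.37 and 6.45 with GATA-4 and 5.25, 6.35, 5.73, 5.78 and 5.74 with LacZ, and rose 1.80-fold (limma adjusted p = 0.0393). LacZ array 2 came just under the lowest GATA-4 array, and the call was lost in 8 of the 10 leave-one-out fits, all but those without GATA-4 array 1 or LacZ array 2, with a limma adjusted p of up to 0.101. Its heavy chain partner Slc3a2 differed by 0.34 (adjusted p = 0.134). Slc7a7, a carrier of basic amino acids that macrophages also express, rose 1.61-fold (limma adjusted p = 0.0197), with 8.30, 8.41, 8.08, 7.84 and 7.84 on the GATA-4 arrays and 7.44, 7.57, 7.11, 7.40 and 7.49 on the LacZ arrays, beside the higher macrophage markers given above. Leaving out LacZ array 3 ended that call (limma adjusted p = 0.0671). Slc7a11, the cystine transporter, differed by 0.89 (limma adjusted p = 0.0866), and its LacZ mean of 4.77 alone was too dim to be tested.

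The rest of serine, glycine and one-carbon metabolism had 23 genes on the array and 19 tested, of which none rose and 1 fell, with a median of -0.06. At an unadjusted p under 0.05, 2 of the 19 were higher and 2 lower, beside 1279 higher and 1306 lower of all 10688 genes. The gene that fell was Dld, a subunit shared by the glycine cleavage system and the mitochondrial dehydrogenases that feed the Krebs cycle (difference -0.28, limma adjusted p = 0.0482). Its call was lost in 8 of the 10 leave-one-out fits, all but those without GATA-4 array 1 or 4, with a limma adjusted p of up to 0.139. Sfxn1, which carries serine into mitochondria, differed by 0.53 by its brightest probe set (adjusted p = 0.076) and rose by 0.61 by its other one (limma adjusted p = 0.02). Mthfd1l, a mitochondrial enzyme of formate production, differed by 0.77 (adjusted p = 0.101). Psph, the last enzyme of serine synthesis, and Mthfd2, both named for their place in the pathway once their values were known, had differences of 0.44 and 0.28 and limma adjusted p-values of 0.27 and 0.43.

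**Figure D4:**
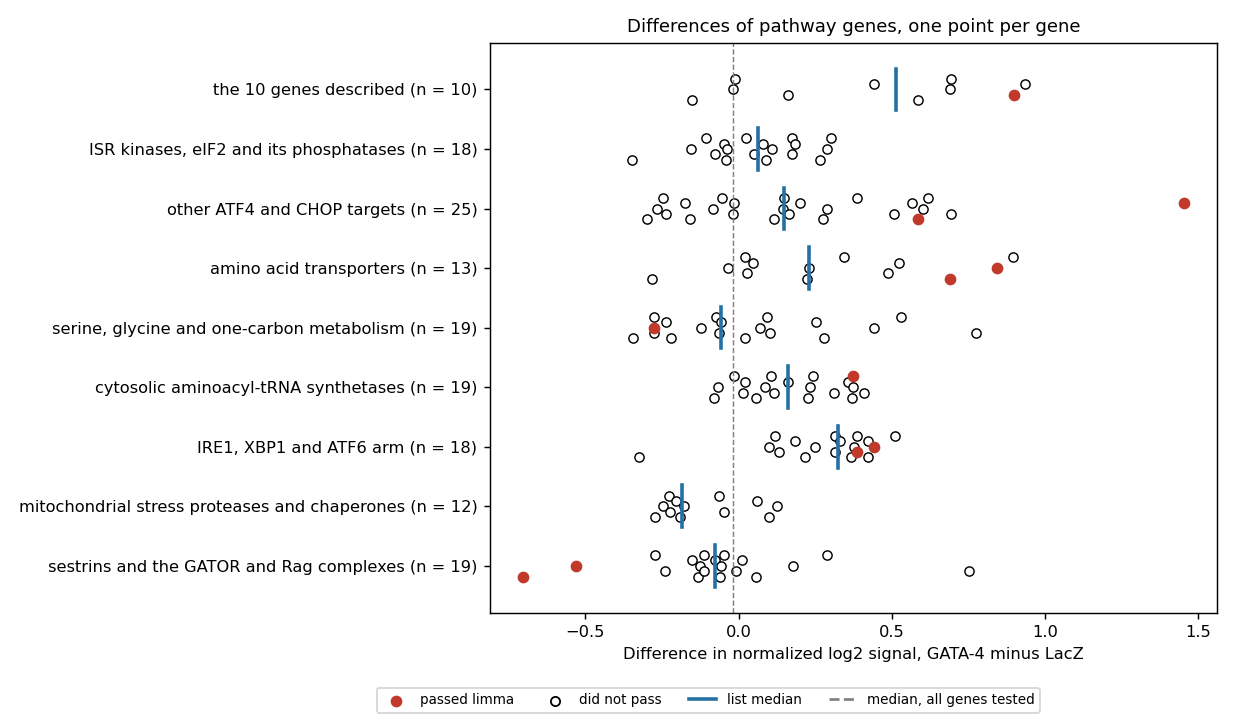
Difference in normalized log2 signal, GATA-4 minus LacZ, with a point per tested gene for the 10 genes described and the 8 pathway lists, where ISR stands for the integrated stress response. Red points passed limma's adjusted threshold, blue lines are list medians and the dashed line is the median of all genes tested, -0.02. The list medians run from -0.18 for mitochondrial proteases and chaperones to 0.32 for the IRE1, XBP1 and ATF6 arm, and 0.51 for the 10 genes.

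Cytosolic aminoacyl-tRNA synthetases, which charge tRNAs with amino acids and many of which are ATF4 targets, had positive differences in 16 of 19 genes, and 1 rose, with a median of 0.16. That gene was Nars1, the asparagine enzyme, which rose 1.30-fold (difference 0.37, limma adjusted p = 0.0408). Its call was lost in 8 of the 10 leave-one-out fits, all but those without GATA-4 array 1 or LacZ array 2, with a limma adjusted p of up to 0.118. Aars1 and Wars1 differed by 0.41 and 0.36 with limma adjusted p-values of 0.0788 and 0.0946.

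The parallel arm of the unfolded protein response, run by IRE1, XBP1 and ATF6, had positive differences in 17 of 18 genes, of which 2 rose and none fell, and its median was 0.32. The chaperone genes Calr and Hsp90b1 rose by 0.44 and 0.39 (limma adjusted p of 0.00418 and 0.0205), and leaving out LacZ array 3, 4 or 5 ended the call for Hsp90b1 (limma adjusted p of up to 0.0683). Sel1l and Sec61b, of protein quality control and import at the endoplasmic reticulum, differed by 0.38 and 0.42 (adjusted p of 0.075 and 0.101). In the mitochondrial list none of 12 genes changed, and 9 of 12 differences were negative, with a median of -0.18. At an unadjusted p under 0.05, 6 of the 12 were lower and none higher, beside the 1306 lower and 1279 higher of all 10688 genes. The smallest p-values belonged to Clpx and Hspa9, at -0.22 and -0.25, with limma adjusted p-values of 0.0877 and 0.104.

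Sestrins act on mTORC1 through the GATOR and Rag complexes, and of 19 such genes besides Sesn2 none rose and 2 fell, with a median of -0.08. Rragd, a Rag GTPase of the lysosome surface, read 8.25, 8.56, 8.37, 8.32 and 8.32 with GATA-4 and 9.09, 8.84, 9.11, 9.13 and 9.17 with LacZ. It fell by 0.70 (SE 0.10), 1.63-fold, with a limma adjusted p of 0.0062, and passed in all 10 leave-one-out fits. Sesn1, a sestrin known as a target of p53 and FOXO factors, read 8.84, 9.49, 9.05, 9.39 and 9.37 with GATA-4 and 9.72, 9.64, 9.85, 9.76 and 9.83 with LacZ. It fell by 0.53 (SE 0.12, limma adjusted p = 0.0297), and the call was lost without GATA-4 array 3 or LacZ arrays 1, 3, 4 or 5, with a limma adjusted p of up to 0.0933. Its other probe set differed by -0.22 (adjusted p = 0.576). Sesn3 differed by 0.75 by its brightest probe set (limma adjusted p = 0.0551) and by -0.60 by its other one, which was too dim to be tested. By their brightest probe sets the sestrins thus went different ways in sign, with Sesn2 and Sesn3 positive and Sesn1 negative. Those differences were not tested against one another.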

How the data were processed

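The authors deposited linear intensities, 1 per probe set and array, which the submitters' processing notes credit to GCOS, the scanner maker's software. Its version, summary method and scaling were not stated in the sources used here, and detection calls were not used. Gene names came from GEO's annotation of the platform, brought up to date by gene ID through a RefSeq table (GRCr8). Intensities of 31042 probe sets (57 array controls left out) were taken to log2, quantile normalized, floored at a log2 of 0 and tested where the mean over 10 arrays lay above the 40th percentile. The fit was limma 3.58.1 in R 4.3.3 (lmFit, eBayes with trend), two-sided, with no covariates. It was also run on simulated data with noise drawn independently for each probe set and array. That simulation held no dim array, so it cannot show how the fit behaves with one. The labels tie no sample to an animal, so p-values measure the spread between these samples. Array number limits the precision. Control ratios were compared with exact permutation tests over 252 assignments.

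The genes and lists were chosen with earlier results of these data known. Besides the 10 genes and Gata4, the naming rule takes up to 8 changed genes of each list and the 2 with the smallest p that did not pass. Alternatives changed normalization, floor, added constant, filter and limma's options (statmod 1.5.0 for array weights) or left out arrays.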

Additional observations from a re-analysis of the deposited data

Results flagged for a closer look

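In 2 of the 26 groups of 5 arrays checked over the 13 probe sets, 1 array lay far from the rest of its group by Dixon's criterion, which by chance marks about 1 group in 20. Both were the dim GATA-4 array 1. It read 10.28 for Atf5, where the next GATA-4 array read 9.25, and 9.92 for Shmt2, where the next read 9.44. Without it the Atf5 difference was -0.24 and that of Shmt2 was 0.33, and neither passed limma's threshold.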

How the results depend on the processing

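Asns was past the threshold in 10 of 21 alternatives and positive in all of them (0.70 to 1.16, limma adjusted p from 0.0336 to 0.993). Psat1 passed in 5, Ddit3 in 1 and none of the other 7 genes in any. The count of changed genes among the 10 was 0 in the signals as deposited, under median centring, with no filter, with no trend and without GATA-4 arrays 4 and 5. It was 2 with 16 added, with the filter at the 60th percentile and with array weights, 3 under median centring without GATA-4 array 1, and 0 to 2 with single arrays left out. Over all probe sets, 988 changed (566 higher, 422 lower). The count was 9 in the signals as deposited (9 and 0), 619 with no filter (227 lower), 539 with no trend (358 and 181), 2890 with array weights (1435 and 1455), 201 without GATA-4 arrays 4 and 5 (139 and 62), and 2616 under median centring without GATA-4 array 1 (1130 and 1486). Median centring gave 322 higher and 401 lower. With single arrays left out the count ran from 174 (LacZ array 3) to 2849 (GATA-4 array 1), with 142 to 1464 higher and 32 to 1385 lower. The cause of these shifts was not tested.

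Signs turned only for Atf5 and the 3 Trib3 probe sets among the 39 gene differences followed, never past the threshold. Array weights gave 0.082, -0.10 and 0.25 for the brightest, middle and dimmest Trib3 probe sets, median centring without GATA-4 array 1 gave -0.058 for the middle and 0.30 for the dimmest one, and Atf5 was 0.11 without GATA-4 arrays 4 and 5. With single arrays left out Atf5 ran from -0.24 to 0.14 and the Trib3 probe sets, in the same order, from -0.12 to 0.13, -0.047 to 0.20 and -0.30 to 0.31. The group difference of the control 3' to 5' ratio, -0.0017, was 0.044 by beta-actin alone and -0.068 to 0.088 with single arrays left out. That of the 3' to middle ratio, -0.19, was -0.065 by GAPDH alone (exact permutation p = 0.524), -0.32 by beta-actin alone (exact permutation p = 0.0159) and -0.23 to -0.15 with single arrays left out (exact permutation p from 0.0397 to 0.0873). No paired analysis was possible because replicate numbers are not part of the labels. Signals near background, as for Gdf15 and Trib3, limit how well a fold can be known.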
